A study of Mus musculus with 36 samples.

Results

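Guanylate-binding proteins (GBPs) and immunity-related GTPases (IRGs) were followed in the immortalised mouse microglial line BV-2 as 10 genes chosen by symbol out of the 19879 genes listed. The GBPs were Gbp2, Gbp3, Gbp5, Gbp7 and Gbp8, and the IRGs and related genes were Igtp, Irgm1, Irgm2, Ifi47 and Gm5431. RNA was sequenced in 36 libraries, 3 for each of 12 groups, after 4 h or 24 h of exposure. The vehicle groups received DMSO or ethanol (EtOH) at 0.2%. The other groups received lipopolysaccharide (LPS) from Escherichia coli at 600 ng/mL, alone or with 30 µM dimethyl fumarate (DMF), 30 µM monomethyl fumarate (MMF) or 6 µM cannabidiol (CBD). DMF and MMF were dissolved in DMSO and CBD in EtOH. All groups were the same wild-type line, in medium whose serum was lowered just before treatment, so the data describe 1 cell line and no animal. The experiment was repeated 3 times, and p-values measure the spread between those repeats of a single line.

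GBPs and IRGs are GTPases that interferons induce. GBPs gather on the surface of cytosolic bacteria and on damaged pathogen vacuoles, bind bacterial LPS and help to bring it to caspase-11, the product of Casp4. IRGs act on vacuoles that hold a pathogen: effector IRGs disrupt them, and the IRGM proteins, encoded by Irgm1, Irgm2 and Igtp, sit on the membranes of the cell itself and hold the effectors in check. Microglia are the resident macrophages of the brain and sense LPS through Toll-like receptor signalling, which also leads to interferon production.

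All values are read counts that the authors scaled by DESeq2 size factors, and levels are given here as normalized counts on 1 scale over all 36 libraries, each of which held 14.1 M to 26.7 M counted reads (median 16.2 M). Log2 fold changes come from limma on log2(normalized count + 1), with Benjamini-Hochberg adjustment over all genes tested, and a gene is called at an adjusted p under 0.05. Fold changes on this scale understate the change of low genes. The median log2 fold change over all genes lay between -0.02 and 0.01 in each of the 31 comparisons. All 12 microglia and macrophage markers checked were present at a mean of 10 or more, with a summed level of 27326 to 50964 per library. The summed astrocyte markers reached 27.2, the neuron markers 6.27 and the lymphocyte markers 23.7, while 2 of 4 oligodendrocyte markers were at 10 or more and their sum ran from 737 to 1584. In bulk RNA, fewer cells that express a gene and less of its RNA per cell cannot be told apart.

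In every group at 4 h, the second library of the group (replicate 2, or replicate 5 of a vehicle) was the highest for 8 to 10 of the 10 genes. At 24 h replicate 2 was the highest for 8 of 10 genes in LPS and in LPS with DMF, 6 in LPS with MMF and 10 in LPS with CBD, and replicate 5 for 2 in DMSO and 3 in EtOH. The summed level of the 10 genes in the 3 libraries of LPS at 4 h was 4952, 7728 and 5763. In DMSO at 4 h it was 1081, 2166 and 1361. The highest vehicle library was therefore below the lowest LPS library. What set these libraries apart was not tested, and calls that were lost without 1 of them are given beside the results.

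The GBP genes Gbp2, Gbp3, Gbp5 and Gbp7 lie next to each other on chromosome 3 of GRCm39, on the plus strand, at chr3:142326363-142343769, chr3:142265787-142278970, chr3:142199739-142228105 and chr3:142236103-142255910. Gbp8 belongs to a second cluster and lies at chr5:105162016-105287406 on the minus strand. The other genes lie on chromosome 11. Igtp (chr11:58090382-58098417) and Irgm2 (chr11:58090444-58113608), both on the plus strand, overlap by 162 exonic bases. Irgm1 (chr11:48752795-48762510, minus), Gm5431 (chr11:48778249-48793041, minus) and Ifi47 (chr11:48967414-48987801, plus) form the other group on that chromosome.

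Family members share sequence, and reads may be shared between them. Of the 50-base words in its annotated transcripts, Gm5431 shared 39.4% with other genes, mostly 9930111J21Rik2 and 9930111J21Rik1. Gbp8 shared 14.5%, mostly with Gbp4 and Gbp9, and Gbp7 11.5%, of which the pseudogene Gm43802 accounted for 9.45%. Irgm2 shared 8.79% and Igtp 7.45%, mostly with each other. The remaining genes were between 0.271% (Irgm1) and 2.68% (Gbp3). Values of Gm5431 are therefore uncertain. Gbp5, Gbp7, Irgm1, Irgm2 and Ifi47 also overlap antisense noncoding transcripts, and since whether counting used strand was not given in the sources used here, reads of those transcripts cannot be told apart.

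The stretches before the RefSeq gene starts are shown because 7 of the genes carry the core of the interferon-stimulated response element there. The 250 bases before each start (RefSeq promoter windows of GRCm38.p6, matched exactly to GRCm39) were searched on both strands for the core of that element, GAAA and again GAAA with any 2 bases between, and for TTCNNNGAA, the core of the interferon-gamma-activated site (N is any base). There were 10 windows of 9 genes, with 2 starts for Gbp3. The second Gbp3 window and those of Gbp7, Igtp and Irgm1 lay wholly in annotated exons of any gene, and the others partly. In every window that held the first motif except that of Irgm2, the match overlapped an annotated exon. Each line gives 30 bases, 5′ to 3′ on the strand of the gene. Capitals mark the match to the first motif on either strand and, in Igtp and Irgm2, also to the second.
Gbp2, chr3:142326355-142326384 (+): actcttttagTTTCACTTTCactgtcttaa
Gbp3, chr3:142265753-142265782 (+): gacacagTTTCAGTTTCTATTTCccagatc
Gbp5, chr3:142202520-142202549 (+): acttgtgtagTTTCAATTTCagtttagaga
Gbp7, chr3:142236034-142236063 (+): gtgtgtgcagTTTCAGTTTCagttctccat
Igtp, chr11:58090333-58090362 (+): ccatTTCTAGGAActGAAACTGAAAgctgt
Irgm1, chr11:48762255-48762284 (-): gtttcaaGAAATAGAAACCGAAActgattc
Irgm2, chr11:58105724-58105753 (+): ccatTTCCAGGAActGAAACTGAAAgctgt

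The response element core was found in 7 of the 10 windows, against 2.98% of all 32851 RefSeq promoter windows of that length. TTCNNNGAA was found in 4 windows, those of Gbp5, Gbp7, Igtp and Irgm2, against 7.02% of all windows. Both motifs stood together in those 4 windows and in 0.332% of all. The Igtp and Irgm2 windows carried the same arrangement, with the second motif just upstream of the first, and were identical at 82 of 100 aligned bases ending at the motif. The second Gbp3 start and the windows of Ifi47 and Gm5431 held neither set of letters.

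**Figure D1:**
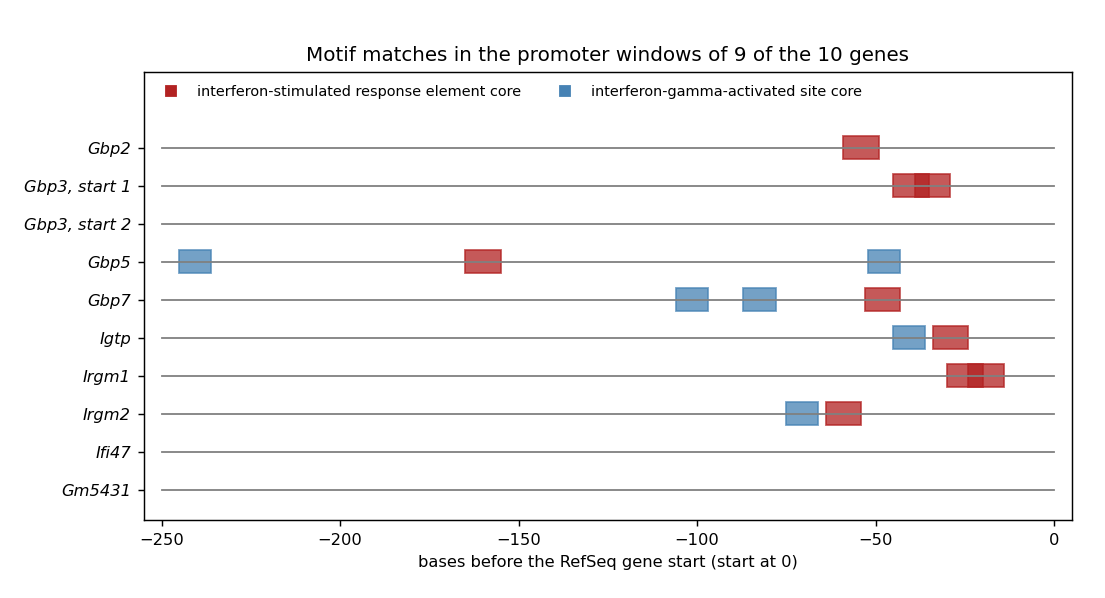
Matches to the 2 motif cores in the 250 bases before the RefSeq starts of 9 genes (10 windows). The x axis is the distance in bases from the start, red boxes are the response element core on either strand and blue boxes TTCNNNGAA. The red boxes lie within 65 bases of the start in 6 of the 7 windows that hold one, and at 165 to 156 bases in Gbp5.

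A window with both motifs, that of Irgm2, and a window with neither, that of Ifi47, are given as examples. Each is cut at the first annotated exon inside the window. The annotated Irgm2 gene begins upstream of its window, at chr11:58090444. The Gm5431 window also held neither motif, and whether the motifs bear on the levels of these genes was not tested. Capitals mark the motifs.
Irgm2, chr11:58105553-58105788 (+): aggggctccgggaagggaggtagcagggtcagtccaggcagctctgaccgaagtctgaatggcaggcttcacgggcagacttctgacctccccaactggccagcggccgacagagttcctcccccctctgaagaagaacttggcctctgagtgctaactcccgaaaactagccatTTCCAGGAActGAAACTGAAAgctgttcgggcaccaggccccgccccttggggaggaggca
Ifi47, chr11:48967164-48967411 (+): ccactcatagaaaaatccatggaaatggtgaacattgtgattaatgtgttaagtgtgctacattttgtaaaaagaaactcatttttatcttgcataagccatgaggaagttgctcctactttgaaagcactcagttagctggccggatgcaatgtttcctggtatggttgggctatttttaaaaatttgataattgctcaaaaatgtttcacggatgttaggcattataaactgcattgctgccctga

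Levels were compared between genes only per kilobase of annotated exon. Irgm1, the IRGM protein best known for its part in autophagy, was the highest of the 10 in all 12 groups, with 388 normalized counts per kilobase ± 69.2 (SD, n = 3) in LPS at 4 h. Irgm2 (192 ± 33.5), Gbp2 (176 ± 72.3), Gbp3 (155 ± 61.7), Igtp (152 ± 43.6) and Gbp7 (123 ± 21.8) followed in that group. Neighbours in this order overlapped from Irgm2 on, while the Irgm2 libraries all lay above those of Gbp7. Ifi47 stood at 89.3 ± 19.7 per kilobase. Gm5431, Gbp5 and Gbp8 were low, at 16.9 ± 3.03, 13.6 ± 5.48 and 0.937 ± 0.619 per kilobase. Gbp8 reached 29.3 ± 8.35 per kilobase in LPS with CBD at 24 h, above Gbp5 (9.69 ± 6.19) there.

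**Figure D2:**
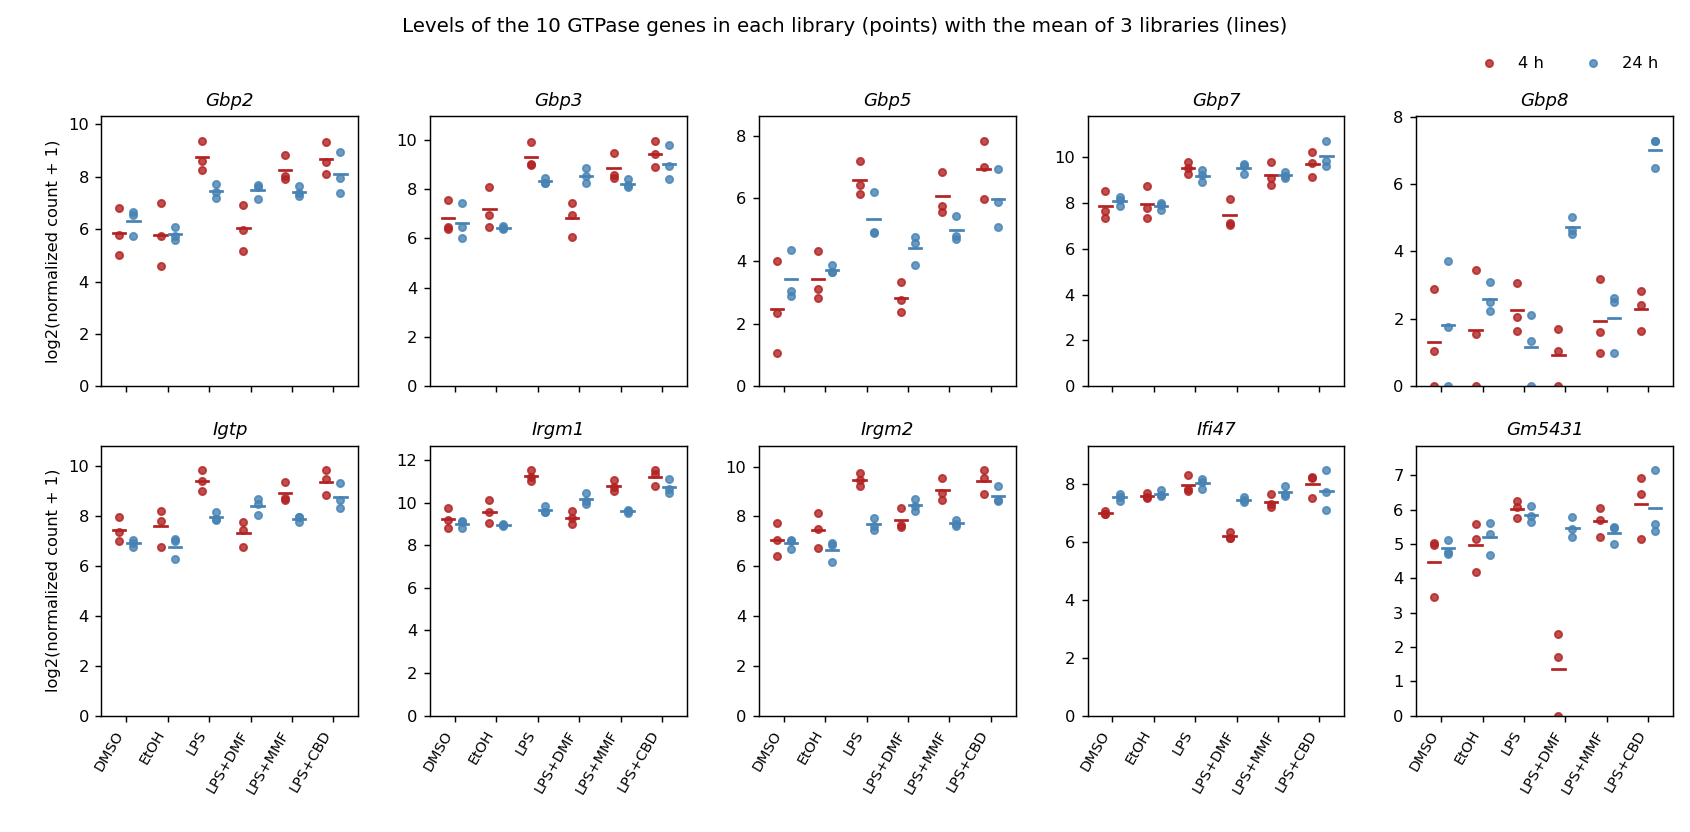
Level of each of the 10 genes in each of the 36 libraries, as log2(normalized count + 1) on the y axis, with the 6 treatments on the x axis. Red points are libraries at 4 h, blue points libraries at 24 h, and lines the mean of 3 libraries. Red points for LPS with DMF lie below those for LPS in every gene but Gbp8, and Gbp8 is highest in LPS with CBD and LPS with DMF at 24 h.

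The first question was how LPS changed these genes against each vehicle. At 4 h, LPS raised 9 of the 9 genes tested against DMSO, where 7.7% of all genes tested were called higher, and 7 of 9 against EtOH, where 5.69% were. In both comparisons the 3 LPS libraries lay above the 3 vehicle libraries for all 9 genes, as they did for 18.5% of all genes tested against DMSO and 15.9% against EtOH. Gbp8 was too low to be tested, with 12 reads over the 3 LPS libraries and 7 over the 3 of DMSO. The median log2 fold change of the genes tested was 2.01 against DMSO and 1.81 against EtOH.

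Gbp5, a GBP linked to inflammasome assembly, had normalized counts of 84.3, 144 and 68.9 in LPS at 4 h, of 4.01, 15 and 1.08 in DMSO and of 6.06, 18.7 and 7.68 in EtOH. Every LPS library was above every vehicle library, and the gene was listed at under 20 in all vehicle libraries. Its log2 fold change was 4.09 ± 0.65 (SE; adjusted p = 0.00476) against DMSO and 3.16 ± 0.43 (adjusted p = 0.00335) against EtOH. Gbp5 could be tested at 4 h mainly through its LPS libraries.

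Gbp2, which coats pathogen vacuoles, had 304, 659 and 392 normalized counts in LPS at 4 h, 31.1, 110 and 54.1 in DMSO and 23.2, 127 and 51.9 in EtOH. The vehicle library with the highest value was still below the lowest LPS library. Its log2 fold change was 2.88 ± 0.43 (adjusted p = 0.00368) against DMSO and 2.97 ± 0.54 (adjusted p = 0.0118) against EtOH. Its neighbour Gbp3 had 506, 963 and 512 in LPS, 87.3, 189 and 83.4 in DMSO and 87.8, 270 and 124 in EtOH, and it rose by 2.48 ± 0.35 and 2.13 ± 0.40 on the log2 scale. Gbp7, which has been tied to assembly of the phagocyte oxidase, had 608, 869 and 731 in LPS, 159, 371 and 201 in DMSO and 163, 425 and 221 in EtOH. It rose by 1.66 ± 0.28 and 1.55 ± 0.31, the smallest log2 fold change of the 4 GBPs tested in both comparisons.

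The 3 IRGM genes all rose. Irgm1 had 2068, 2938 and 2388 normalized counts in LPS at 4 h, 444, 866 and 573 in DMSO and 521, 1100 and 744 in EtOH. Irgm2, which restrains caspase-11 activation, had 598, 848 and 711 in LPS, 84.3, 210 and 132 in DMSO and 104, 277 and 181 in EtOH. Igtp, also called Irgm3, had 511, 905 and 661 in LPS, 127, 245 and 160 in DMSO and 107, 294 and 222 in EtOH. For all 3 genes the LPS libraries were apart from both vehicles. The log2 fold changes against DMSO and EtOH were 2.01 ± 0.23 and 1.70 ± 0.25 for Irgm1, 2.41 ± 0.29 and 2.03 ± 0.31 for Irgm2, and 1.97 ± 0.26 and 1.81 ± 0.35 for Igtp, with adjusted p between 0.00105 and 0.0155.

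Ifi47, an effector IRG, had 217, 318 and 227 normalized counts in LPS at 4 h, against 133, 124 and 123 in DMSO and 182, 205 and 188 in EtOH. The LPS libraries were above both vehicles, and the EtOH libraries were above the DMSO libraries. Its log2 fold change was 0.97 ± 0.16 (adjusted p = 0.0056) against DMSO and 0.39 ± 0.16 (adjusted p = 0.171) against EtOH. Gm5431 had 52.7, 75.9 and 66.8 in LPS, 10, 30.1 and 31.4 in DMSO and 17.2, 47.4 and 34.6 in EtOH, with log2 fold changes of 1.54 ± 0.41 (adjusted p = 0.038) and 1.06 ± 0.35 (adjusted p = 0.101).

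Without any 1 of LPS replicates 1, 2 and 3 or DMSO replicate 6, the call of Gm5431 against DMSO was lost (adjusted p from 0.0544 to 0.113), and 8 of 9 genes were then called without LPS replicate 2. Against EtOH, 3 genes were called without EtOH replicate 6, where Gbp2 (adjusted p = 0.0568), Gbp3 (0.0656), Igtp (0.0515) and Gbp7 (0.0788) were lost. Without LPS replicate 3 Igtp (0.0584) and Gbp7 (0.0663) lost their calls, as did Gbp3 (0.0508) and Gbp7 (0.0534) without EtOH replicate 4.

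At 24 h the genes were higher with LPS as well. All 9 genes tested were called higher against DMSO, where 12.1% of all genes were, and 7 of 9 against EtOH, where 10.8% were. The LPS libraries were above the vehicle libraries for all 9 genes in both comparisons, and for 18.8% of all genes against DMSO and 18.0% against EtOH. Gbp3 had 307, 345 and 303 normalized counts in LPS, 63.2, 87.7 and 171 in DMSO and 81.7, 90 and 84.6 in EtOH, and rose by 1.69 ± 0.28 (adjusted p = 0.00132) and 1.89 ± 0.13 (adjusted p = 2.39e-06) on the log2 scale. Gbp5 rose by 1.93 ± 0.46 and 1.63 ± 0.36, Gbp2 by 1.15 ± 0.23 and 1.66 ± 0.19, and Gbp7 by 1.11 ± 0.15 and 1.31 ± 0.14. Against DMSO, Gbp5 passed the filter mainly through its LPS libraries, where it is high. The IRGM genes rose by 0.66 ± 0.11 (Irgm1), 0.78 ± 0.16 (Irgm2) and 1.07 ± 0.14 (Igtp) against DMSO, and by 0.72 ± 0.10, 1.04 ± 0.21 and 1.21 ± 0.20 against EtOH. Ifi47 rose against DMSO by 0.50 ± 0.12 (adjusted p = 0.0135), and Gm5431 rose too (adjusted p = 0.00862), with 55.2, 68.5 and 49 normalized counts in LPS and 33.7, 25.2 and 26.5 in DMSO. Against EtOH these 2 differed by 0.37 ± 0.12 (adjusted p = 0.0581) and 0.67 ± 0.27 (adjusted p = 0.102). Ifi47 lost its call against DMSO without LPS replicate 3 (adjusted p = 0.0622), and Gbp5 without DMSO replicate 6 (adjusted p = 0.0504). In 1 limma fit over all 36 libraries Gbp2 (adjusted p = 0.0849), Irgm2 (0.0712), Ifi47 (0.0938) and Gm5431 (0.162) lost their calls against DMSO.

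**Figure D3:**
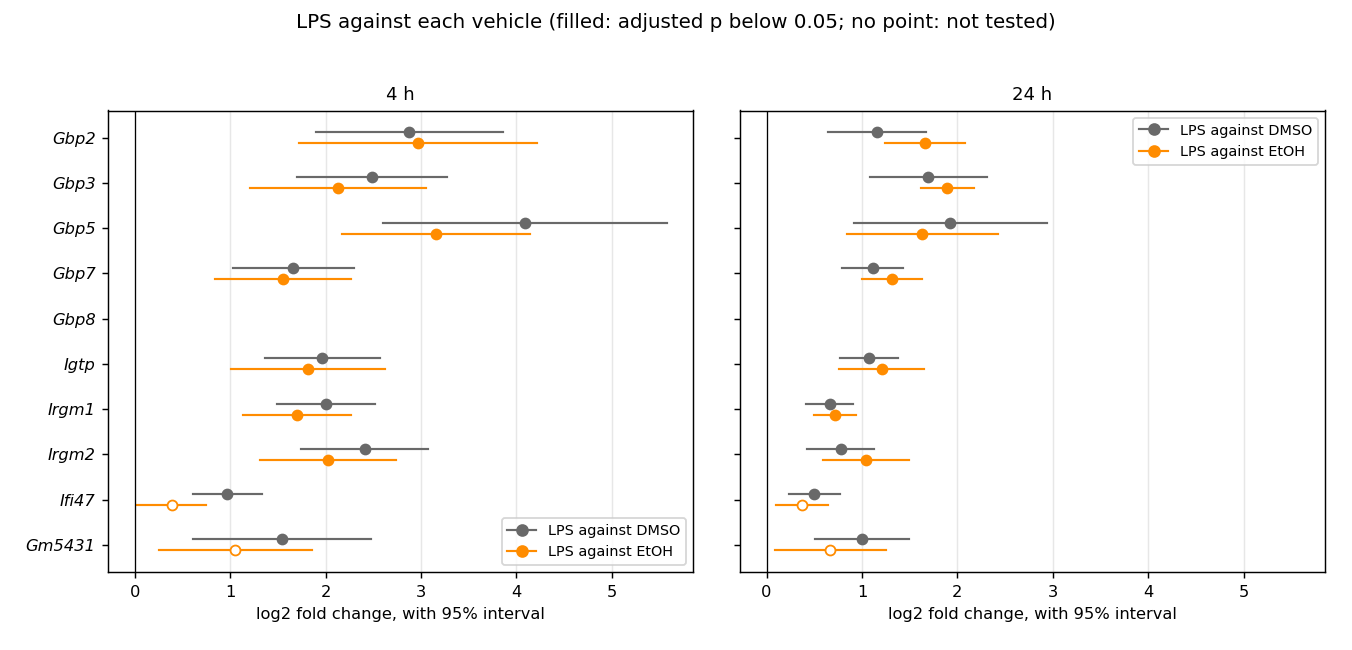
Log2 fold change of LPS against DMSO (grey) and against EtOH (orange) at 4 h (left) and 24 h (right), on the x axis, for each gene on the y axis. Points are limma estimates from 3 against 3 libraries, bars 95% intervals, and filled points adjusted p under 0.05. All points lie above 0, and Gbp5 at 4 h is the farthest, at 4.09 against DMSO.

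The change between 4 h and 24 h was tested in 1 model over 12 libraries. The LPS effect against DMSO was smaller at 24 h by 1.34 ± 0.27 for Irgm1 (adjusted p = 0.008) and by 1.63 ± 0.35 for Irgm2 (adjusted p = 0.0117), the 2 genes of 9 called lower, where 4.37% of all genes were. Against EtOH it was smaller by 0.98 ± 0.28 for Irgm1 alone (adjusted p = 0.0439), where 4.39% of all genes were lower. The call of Irgm1 against EtOH was lost in 9 of the 12 fits without a single library, with adjusted p from 0.0688 to 0.101. Without DMSO replicate 5 at 4 h, 6 genes were called in the first comparison, and without EtOH replicate 5 at 4 h, 4 genes in the second. Without LPS replicate 2 at 4 h the numbers were 2 and 0.

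The second question was how each compound changed the genes in LPS-treated cells. All compounds were set against the same LPS group, with DMF and MMF in DMSO and CBD in EtOH. The solvent was not varied apart from the compound under LPS, so its part in these comparisons was not tested. DMF at 4 h lowered 9 of the 9 genes tested against LPS alone, where 6.51% of all genes tested were called lower. The 3 libraries of LPS with DMF lay below the 3 LPS libraries for all 9 genes and for 15.5% of all genes tested, and 9 genes were called in each fit that left out a library. Their log2 fold changes ran from -1.62 to -4.61.

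Irgm1 had 623, 775 and 509 normalized counts in LPS with DMF at 4 h, where LPS alone had 2068, 2938 and 2388. The groups did not overlap, and the log2 fold change was -1.96 ± 0.17 (adjusted p = 0.000237), with a 95% interval from -2.35 to -1.57. Irgm2 had 189, 320 and 203 and Igtp 171, 213 and 105. Both were below every LPS library, with log2 fold changes of -1.62 ± 0.21 (adjusted p = 0.00157) and -2.10 ± 0.27 (adjusted p = 0.00162).

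Gbp5 had 5.67, 9.1 and 4.21 normalized counts in LPS with DMF at 4 h, a level within that of the vehicle libraries. It fell by 3.74 ± 0.37 on the log2 scale (adjusted p = 0.000404). Gbp2 had 62.4, 122 and 34.7 and fell by 2.72 ± 0.42 (adjusted p = 0.00387). Gbp3 had 123, 174 and 65.2, and Gbp7 140, 289 and 131. These neighbours on chromosome 3 fell by 2.49 ± 0.36 (adjusted p = 0.0026) and 2.06 ± 0.28 (adjusted p = 0.00204).

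Ifi47 had 80.5, 70.5 and 69.4 normalized counts in LPS with DMF at 4 h, below all libraries of LPS and of both vehicles. It fell by 1.76 ± 0.18 (adjusted p = 0.000478) against LPS. Gm5431 had 0, 2 and 4 reads in the 3 libraries of LPS with DMF and 50, 72 and 63 in those of LPS. Its log2 fold change of -4.61 ± 0.55 (adjusted p = 0.00112) rests on these 6 reads and on the added count of 1. Gm5431 and Gbp5 passed the filter only through the LPS libraries.

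Against the vehicle itself, LPS with DMF at 4 h called 1 gene of 7 tested lower, where 12.1% of all genes were. This was Ifi47, at -0.79 ± 0.15 (adjusted p = 0.00593). The other 6 had log2 differences between -0.39 ± 0.35 (Gbp7) and 0.79 ± 0.31 (Irgm2, adjusted p = 0.0979), and their libraries overlapped those of DMSO. Over all genes tested, the libraries with DMF lay above those of DMSO for 21.8% and below them for 20.7%. Without DMSO replicate 5, 2 genes were called.

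MMF at 4 h left none of the 9 genes tested called against LPS, where 0.122% of all genes were called in either direction. By limma 2 of the 9 had an unadjusted p under 0.05, and edgeR and DESeq2 called 0. All 9 log2 differences were below 0, from -0.30 ± 0.24 (Gbp7) to -0.56 ± 0.18 (Ifi47, adjusted p = 0.532). Ifi47 had 149, 204 and 157 normalized counts with MMF, below its LPS libraries, while the libraries of the other 8 genes overlapped. Over all genes tested, the libraries with MMF lay below those of LPS for 7.36% and above them for 6.11%. Replicate 2 was the highest library for all 10 genes in both groups. With the replicate number as a block 5 genes were called lower, and 1.57% of all genes were called in either direction. Same-numbered libraries correlated at r = 0.576, 0.412 and 0.081, and the comparison was not read as paired because 1 value lay under 0.1. That cutoff does not show that the samples are unpaired. Which of the 2 fits is the apter was not tested. The 95% interval of Irgm1 ran from -0.81 to -0.12 and that of Gbp2 from -1.13 to 0.18, so differences of up to these sizes are not excluded by the data. LPS with MMF was above DMSO for 7 of 9 genes at 4 h, where 5.12% of all genes were called higher, with Gbp5 at 3.59 ± 0.66, Gbp2 at 2.41 ± 0.40 and Irgm1 at 1.54 ± 0.22. Gbp7 lost this call without replicate 2 (adjusted p = 0.0857) or 3 (0.0836) of LPS with MMF, or replicate 4 (0.0801) or 6 (0.119) of DMSO. Gbp5 passed the filter against DMSO mainly through the libraries with MMF, where it is high.

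CBD at 4 h left none of the 9 genes called against LPS, where 0.00875% of all genes were called in either direction. None had an unadjusted p under 0.05 by limma, and edgeR and DESeq2 called 0. The log2 differences lay between -0.07 ± 0.34 (Gbp2) and 0.37 ± 0.44 (Gbp5), and all 9 genes had overlapping libraries. Over all genes tested, the libraries with CBD lay above those of LPS for 4.22% and below them for 6.4%. For Irgm1, with 1784, 2923 and 2621 normalized counts under CBD, the 95% interval was -0.45 to 0.41. Against EtOH, LPS with CBD at 4 h was higher for 7 of 9 genes, where 7.52% of all genes were called higher, with Gbp5 at 3.53 ± 0.51 and Gbp2 at 2.91 ± 0.54. Without replicate 3 of LPS with CBD, Igtp (adjusted p = 0.0647) and Gbp7 (0.0628) were lost, and Gbp7 was lost without EtOH replicate 6 (0.0618). Gbp5 passed the filter against EtOH mainly through the libraries with CBD, where it is high.

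At 24 h, 3 of the 10 genes tested were called higher with DMF than in LPS alone, where 11.9% of all genes were, and 1 was called lower, where 13.2% were. Gbp8 had 21, 28 and 32 reads in the 3 libraries of LPS with DMF and 3, 0 and 2 in those of LPS, with a log2 fold change of 3.60 ± 0.55 (adjusted p = 0.00165). It could be tested only because it passed the filter in the libraries with DMF. Irgm2 had 299, 412 and 344 normalized counts with DMF and 176, 243 and 197 without, and Irgm1 982, 1397 and 1087 with and 757, 911 and 759 without. Both IRGM genes were higher in every library with DMF, by 0.77 ± 0.15 (adjusted p = 0.00475) and 0.50 ± 0.13 (adjusted p = 0.0168). Ifi47 had 167, 188 and 174 with DMF and 287, 230 and 271 without, and fell by 0.57 ± 0.12 (adjusted p = 0.00861).

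The other genes did not pass the test at 24 h with DMF. Gbp5 had 13.6, 22.6 and 26.3 normalized counts, all below the LPS libraries (28.7, 71.7 and 29.6), with a log2 difference of -0.94 ± 0.37 (adjusted p = 0.0905). Igtp differed by 0.43 ± 0.16 (adjusted p = 0.0675), Gbp7 by 0.34 ± 0.15 (adjusted p = 0.116) and Gbp2 by 0.03 ± 0.17. With the replicate block, 7 genes were called: Gbp5 (adjusted p = 0.0283), Igtp (0.00823) and Gbp7 (0.00578) were added, and 39.1% of all genes were called in either direction. Irgm1 lost its call without replicate 2 of LPS with DMF (adjusted p = 0.0502) or replicate 3 of LPS (adjusted p = 0.0729). In 1 limma fit over all 36 libraries Irgm2 (adjusted p = 0.0597) and Irgm1 (0.102) lost their calls against LPS. Against DMSO at 24 h, LPS with DMF was higher for 7 of 10 genes, where 20.0% of all genes were, among them Irgm2 (1.55 ± 0.15), Igtp (1.51 ± 0.16), Gbp7 (1.46 ± 0.14) and Gbp3 (1.93 ± 0.30). Gbp8 is counted in the 7. It held 12 reads over the DMSO libraries and passed the filter mainly through those with DMF, where it is high.

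MMF at 24 h left none of the 9 genes tested called against LPS, where 0.0% of all genes were called in either direction. By limma 2 of the 9 had an unadjusted p under 0.05, and edgeR and DESeq2 called 0. The log2 differences ran from -0.53 ± 0.21 (Gm5431) to 0.05 ± 0.14 (Irgm2), each with an adjusted p of 1. This comparison was read as paired (lowest r 0.331). With the replicate block 0 of these genes were called, and 1.78% of all genes in either direction. For Irgm1, with 785, 816 and 728 normalized counts, the 95% interval was -0.26 to 0.15. LPS with MMF at 24 h was above DMSO for 7 of 9 genes, where 12.5% of all genes were called higher. Gbp5 lost this call without replicate 2 (adjusted p = 0.0572) or 3 (0.0534) of LPS with MMF, or replicate 4 (0.0553) or 6 (0.0853) of DMSO. It passed the filter against DMSO mainly through the libraries with MMF, where it is high.

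CBD at 24 h raised 5 of the 10 genes tested above LPS alone, where 23.9% of all genes tested were called higher. Gbp8 had 84, 166 and 180 reads in the 3 libraries, against 3, 0 and 2 in LPS, with a log2 fold change of 5.89 ± 0.52 (adjusted p = 3.03e-05). It passed the filter only through the libraries with CBD, and its size rests on 5 reads in LPS. The IRGM genes rose together. Irgm1 had 1571, 2218 and 1412 normalized counts with CBD, all above the 911 of the highest LPS library, and rose by 1.08 ± 0.15 (adjusted p = 0.000426). Irgm2, with 396, 596 and 403, rose by 1.17 ± 0.18 (adjusted p = 0.000592), and Igtp, with 394, 626 and 316, by 0.79 ± 0.22 (adjusted p = 0.0141). Gbp7, with 911, 1659 and 784, rose by 0.87 ± 0.25 (adjusted p = 0.0155).

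Replicate 2 of LPS with CBD was the highest library for all 10 genes, those called included. The remaining genes were not called. Gbp3 had 484, 886 and 336 normalized counts and Gbp2 245, 496 and 168, with log2 differences of 0.73 ± 0.28 (adjusted p = 0.055) and 0.65 ± 0.33 (adjusted p = 0.125). Gbp5 differed by 0.64 ± 0.47 (adjusted p = 0.288), Gm5431 by 0.19 ± 0.40 and Ifi47 by -0.25 ± 0.28. With the replicate block, 8 genes were called, with Gbp3 (adjusted p = 0.00426), Gbp2 (0.0134) and Gbp5 (0.0301) added, and 56.7% of all genes were called in either direction. Without replicate 2 of LPS with CBD, 6 genes were called. Gbp7 lost its call without LPS replicate 1 (adjusted p = 0.0584) and Igtp without LPS replicate 3 (adjusted p = 0.0528). Against EtOH at 24 h, LPS with CBD was higher for 8 of 10 genes, where 25.5% of all genes were, with Gbp8 at 4.44 ± 0.33, Gbp3 at 2.61 ± 0.28, Gbp2 at 2.30 ± 0.34 and Irgm1 at 1.79 ± 0.15. Gbp8 held 21 reads over the EtOH libraries at 24 h and passed the filter only through those with CBD.

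**Figure D4:**
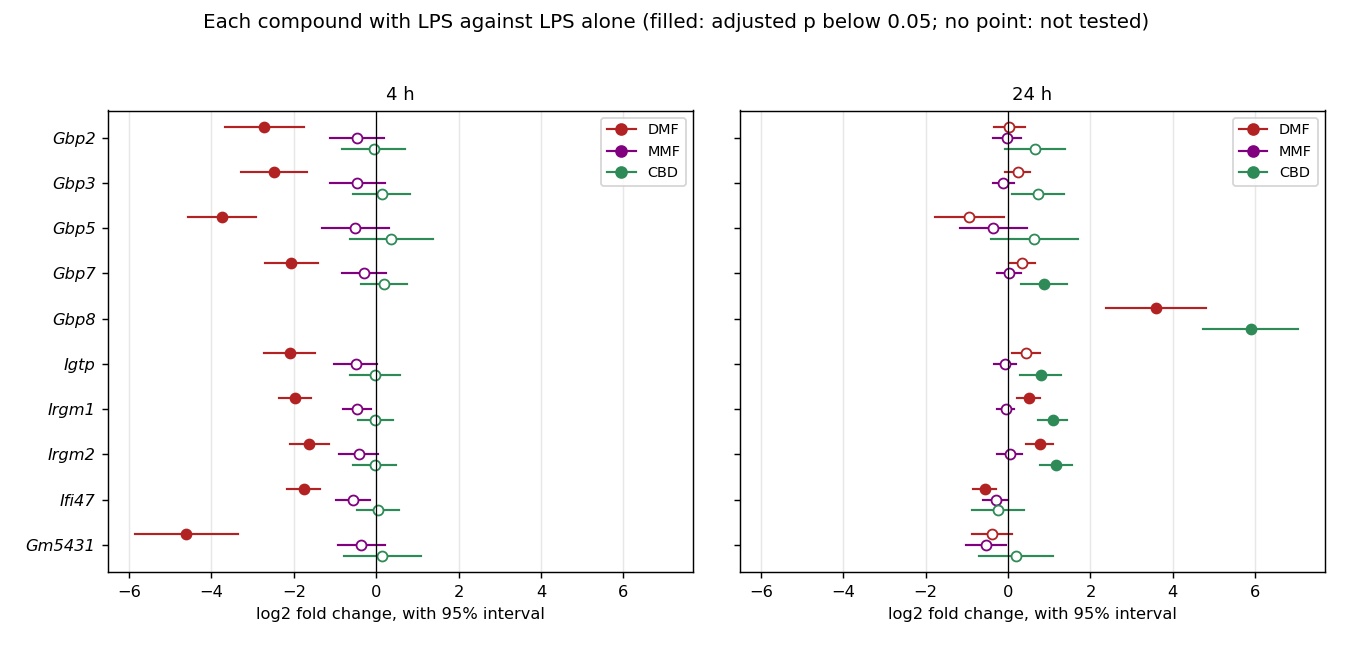
Log2 fold change of LPS with DMF (red), MMF (purple) or CBD (green) against LPS alone at 4 h (left) and 24 h (right), on the x axis, for each gene on the y axis. Points are limma estimates from 3 against 3 libraries, bars 95% intervals and filled points adjusted p under 0.05. At 4 h the 9 red points lie between -1.62 and -4.61 and no purple or green point is filled. At 24 h Gbp8 stands apart, at 3.60 with DMF and 5.89 with CBD.

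The comparisons with LPS alone at each time share the 3 LPS libraries. Whether an effect differed between 4 h and 24 h was therefore tested by itself. The DMF effect was higher at 24 h for 10 of 10 genes, where 8.25% of all genes were, by 1.18 ± 0.21 (Ifi47) to 4.87 ± 0.89 (Gbp8), and 10 genes were called in each fit that left out a library. Gbp8 passed the filter of this test only through the libraries with DMF at 24 h, where it is high. The difference was 2.46 ± 0.23 for Irgm1 (adjusted p = 1.37e-05) and 2.75 ± 0.50 for Gbp2 (adjusted p = 0.00231). The CBD effect was higher at 24 h for 3 of 10 genes, where 15.5% of all genes were, namely Gbp8 (5.81 ± 0.78), Irgm2 (1.21 ± 0.31) and Irgm1 (1.11 ± 0.27). Here Gbp8 passed the filter only through the libraries with CBD at 24 h, where it is high. With the replicate block 7 were called, and 43.7% of all genes in either direction. The MMF effect differed for none of 9, where 0.0% of all genes were called, none had an unadjusted p under 0.05 by limma, and edgeR and DESeq2 called 0.

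DMF and MMF differ by 1 methyl ester: DMF is the diester of fumaric acid with methanol, and MMF is the monoester that its hydrolysis gives. Both were used at 30 µM, so the pair was compared directly at each time, over 19 gene tests in 2 comparisons. CBD was used at 6 µM and was not compared with them. At 4 h, 9 of 9 genes were lower with DMF than with MMF, where 4.97% of all genes were called lower, and the libraries with DMF lay below those with MMF for all 9 and for 14.9% of all genes. Irgm1 was lower by a log2 difference of -1.50 ± 0.17 (adjusted p = 0.00131), Gbp5 by -3.23 ± 0.41 (adjusted p = 0.00214), Gbp2 by -2.24 ± 0.39 (adjusted p = 0.00838), and Ifi47 by -1.19 ± 0.18 (adjusted p = 0.00384). Gm5431 had 35, 64 and 53 reads with MMF and 0, 2 and 4 with DMF. Gbp5 had 5.67, 9.1 and 4.21 normalized counts with DMF. Both genes passed the filter only through the libraries with MMF, where they are high. The call of Irgm2 (-1.20 ± 0.25, adjusted p = 0.0174) was lost without replicate 1 (adjusted p = 0.0533) or 3 (0.0789) of LPS with DMF, or replicate 3 of LPS with MMF (0.0655).

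At 24 h, 4 of 10 genes were called higher with DMF than with MMF, where 10.1% of all genes were. Of these, Irgm1, Irgm2 and Igtp had been lower with DMF at 4 h, while Gbp8 was not tested at 4 h. Gbp8 had 21.9, 31.7 and 24 normalized counts with DMF and 5.16, 0.985 and 4.67 with MMF, a log2 difference of 2.71 ± 0.48 (adjusted p = 0.00483). It held 12 reads over the 3 MMF libraries and passed the filter only through those with DMF, where it is high. Irgm2 was higher by 0.72 ± 0.13 (adjusted p = 0.00483), Irgm1 by 0.56 ± 0.12 (adjusted p = 0.011) and Igtp by 0.50 ± 0.15 (adjusted p = 0.0411). In 1 limma fit over all 36 libraries Irgm2 (adjusted p = 0.0902), Irgm1 (0.0803) and Igtp (0.291) lost these calls. No difference was called for the other 6, with 95% intervals of -0.30 to 0.40 for Gbp2, 0.01 to 0.67 for Gbp3, -1.27 to 0.11 for Gbp5, 0.05 to 0.59 for Gbp7, -0.54 to 0.01 for Ifi47 and -0.37 to 0.66 for Gm5431. With the replicate block 6 genes were called, with Gbp7 (adjusted p = 0.0104) and Gbp3 (0.00779) added, and 39.8% of all genes were called in either direction. Without replicate 3 of LPS with MMF, 2 were called, as Igtp (0.0874) and Irgm1 (0.0506) were lost. Igtp was also lost without replicate 2 (0.129) or 3 (0.142) of LPS with DMF or replicate 1 of LPS with MMF (0.124).

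**Figure D5:**
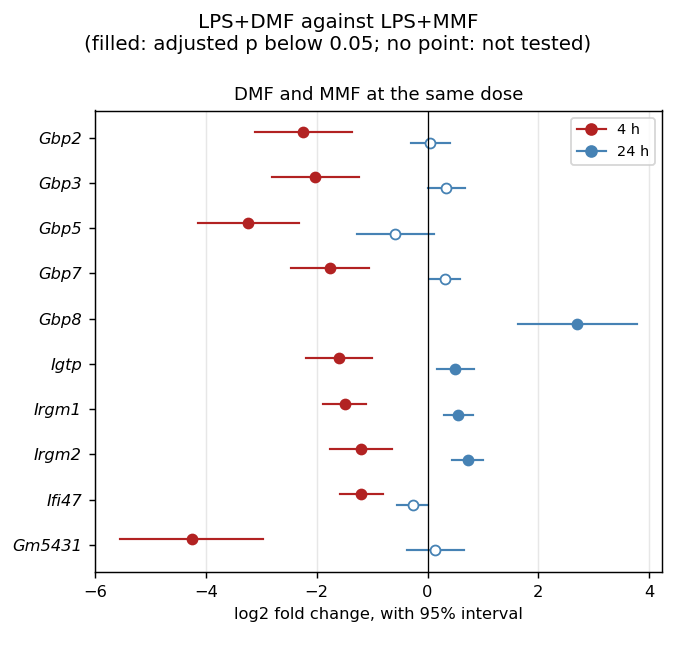
Log2 difference of LPS with DMF against LPS with MMF, both at 30 µM, on the x axis, for each gene on the y axis. Red points are 4 h and blue points 24 h, bars are 95% intervals, filled points have an adjusted p under 0.05, and Gbp8 was not tested at 4 h. All red points lie below -1.1, while the blue points lie between -0.58 and 2.71.

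Between 4 h and 24 h, 6 of 9 genes tested fell in cells with LPS, where 24.3% of all genes were called lower, led by Irgm2 (-1.81 ± 0.15), Irgm1 (-1.60 ± 0.13) and Igtp (-1.45 ± 0.18). The others were Gbp7 (-0.34), Gm5431 (-0.18) and Ifi47 (0.056), which did not pass. Gbp7 was lower too with the replicate block (adjusted p = 0.00891), and 52.2% of all genes were called in either direction. Gbp5 lost its call without LPS replicate 1 (adjusted p = 0.067) or 3 (0.076) at 24 h. With MMF 6 of 9 were lower too, where 24.3% of all genes were, with Irgm2 at -1.33 ± 0.19. Without replicate 2 at 4 h Gbp5 (adjusted p = 0.0677) and Gbp3 (0.066) lost their calls, as they did without replicate 3 at 24 h (0.0616 and 0.0712), and Gbp3 was lost without replicate 1 at 24 h (0.076). With DMF 10 of 10 were higher at 24 h, where 29.7% of all genes were, from 0.59 ± 0.20 (Irgm2) to 4.08 ± 0.56 (Gm5431). Gbp5, Gbp8 and Gm5431 were under 10 in each DMF library at 4 h and passed the filter only through those at 24 h. Irgm2 was lost without replicate 2 (adjusted p = 0.104) or 3 (0.0629) at 24 h, or replicate 1 (0.0871) or 3 (0.0959) at 4 h. With CBD Gbp8 was higher by 4.71 ± 0.36, where 31.6% of all genes were called higher. It held 12 reads over the 3 libraries at 4 h and passed the filter only through those at 24 h. Irgm2 (-0.60 ± 0.23, adjusted p = 0.0441) and Irgm1 (-0.50 ± 0.20, adjusted p = 0.0468) were lower, where 31.6% of all genes were. The number called with CBD was 1 without replicate 1 or 3 at 24 h or replicate 2 or 3 at 4 h, 5 without replicate 1 at 4 h and 7 without replicate 2 at 24 h.

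In the vehicles, 2 of 8 genes tested in DMSO and 3 of 9 in EtOH were called over time. In DMSO Ifi47 was higher at 24 h by 0.53 ± 0.13 (adjusted p = 0.00509), where 25.7% of all genes were called higher, and Igtp was lower by a log2 difference of -0.55 ± 0.21 (adjusted p = 0.0475), where 25.8% were called lower. In EtOH Irgm1 (-0.63 ± 0.20, adjusted p = 0.0218), Irgm2 (-0.82 ± 0.31, adjusted p = 0.0434) and Igtp (-0.85 ± 0.33, adjusted p = 0.0469) were lower, where 29.5% of all genes were. In DMSO 1 gene was called without any 1 of the 3 libraries at 24 h or replicate 6 at 4 h, and 3 without replicate 4 or 5 at 4 h. Without replicate 5 at 4 h Igtp was lost (adjusted p = 0.164). In EtOH none of the 9 was called without replicate 4 at 24 h or replicate 6 at 4 h, and 1 was without replicate 5 or 6 at 24 h or replicate 5 at 4 h. DMSO and EtOH differed in none of 8 genes at 4 h, where 0.0% of all genes were called, and in none of 9 at 24 h, where 0.00854% were. At 4 h 1 gene had an unadjusted p under 0.05 by limma, Ifi47 (-0.58 ± 0.11 for DMSO against EtOH, adjusted p = 0.256), at 24 h none had, and edgeR and DESeq2 called 0 at both times. With the replicate block Irgm1 (adjusted p = 0.00659) and Ifi47 (0.00697) were lower in DMSO at 4 h, and 7.65% of all genes were called in either direction.

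The order of the group means differed between genes, and most neighbours in it overlapped. For Irgm1 the order began with LPS (2465 ± 440), LPS with CBD (2443 ± 590) and LPS with MMF (1782 ± 339) at 4 h, followed by LPS with CBD (1734 ± 427) and LPS with DMF (1155 ± 216) at 24 h. Only the steps below those last 2 groups, of 11, separated all libraries of neighbouring groups. For Gbp8 the 2 highest groups, LPS with CBD (132 ± 37.6) and LPS with DMF (25.9 ± 5.13) at 24 h, were apart from each other and from the next group, EtOH at 24 h (5.28 ± 1.98), and neighbours among the other 10 groups overlapped. For Ifi47 the lowest groups, LPS with DMF (73.5 ± 6.13) and DMSO (127 ± 5.7) at 4 h, were each apart from the group above. No neighbouring groups were apart for Gbp3, Gbp5, Igtp and Irgm2, and 1 pair was for Gbp2, Gbp7 and Gm5431.

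Across the 12 group means, the correlation of each gene with the mean of the other 9 was highest for Gbp3 (r = 0.961), Gbp7 (0.953), Gbp2 (0.943) and Gbp5 (0.940), and lowest for Gm5431 (0.712), Ifi47 (0.617) and Gbp8 (0.437). The 5 other genes most like the mean profile of the 10, out of 10089 ranked, were Parp14 (r = 0.988), Usp18 (0.986), Parp9 (0.986), Apol9a (0.982) and Ifit3 (0.981). Parp14 and Parp9 are ADP-ribosyltransferase family members, Usp18 removes the ubiquitin-like protein ISG15, and Ifit3 is an interferon-induced protein. These values describe 12 group means from 1 set of libraries.

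Other genes of the 2 families were read from a list. Of 10 tested at 4 h, LPS raised 4 against DMSO, where 7.7% of all genes were called higher, and DMF lowered 9 of 10 against LPS (median -2.42), where 6.51% were called lower. Gbp2b, which sits beside Gbp2, rose by 3.13 ± 0.49 with LPS and fell by 2.75 on the log2 scale with DMF (adjusted p = 0.00237). Gbp4 rose by 2.53 ± 0.55 and had a log2 fold change of -4.31 with DMF, and Tgtp2, an effector IRG, rose by 1.89 ± 0.39 and had -3.85. At 24 h DMF raised 1 of 9 (Irgq, 0.49 ± 0.12), where 11.9% of all genes were called higher. CBD raised 7 of 11 (median 0.96), where 23.9% were, led by Gbp6 (2.52 ± 0.47), Gbp11 (2.41 ± 0.63) and Gbp10 (1.97 ± 0.31).

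Of 18 interferon signalling genes tested at 4 h, LPS raised 9 against DMSO (median 0.64), where 7.7% of all genes were called higher, and DMF lowered 11 against LPS (median -0.82), where 6.51% were called lower. Irf1, a transcriptional activator of interferon-stimulated genes, was lower with DMF (-0.83 ± 0.21, adjusted p = 0.0327) and not called with LPS against DMSO (0.65 ± 0.23, adjusted p = 0.0974). Socs1 and Usp18, which damp interferon signalling, rose with LPS by 2.43 ± 0.39 and 1.98 ± 0.32 and had log2 fold changes of -1.28 and -2.57 with DMF. At 24 h DMF raised 1 and lowered 2 of 18, where 11.9% of all genes were called higher and 13.2% lower. CBD raised 7 and lowered 2, where 23.9% were called higher and 24.8% lower, with Jak2 at -0.99 (adjusted p = 0.000489).

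Of 10 genes of cytosolic LPS sensing and the inflammasome tested, LPS raised 5 against DMSO at 4 h, where 7.7% of all genes were called higher, with Il1b at 6.58 ± 0.54 and Casp4 at 2.26 ± 0.27 (adjusted p = 0.00119). DMF at 4 h lowered 3, where 6.51% of all genes were called lower. These were Il1b (-3.09), Gsdmd (-0.71) and Aim2 (-0.37), and Casp4 was not among them (-0.51 ± 0.20, adjusted p = 0.149). Casp4 had 474, 675 and 578 normalized counts in LPS at 24 h, 762, 1019 and 1072 with DMF and 1798, 1752 and 2593 with CBD. It was higher than in LPS in every library with either compound, by 0.72 ± 0.15 (adjusted p = 0.00647) and 1.82 ± 0.17 (adjusted p = 3.55e-05). In the same comparison CBD lowered Il1b (-3.50), Il18 (-0.74) and Nlrp3 (-0.72), so 3 of 10 rose, where 23.9% of all genes were called higher, and 3 fell, where 24.8% were called lower.

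Genes of ubiquitin-like conjugation and vacuole tagging, the machinery that guides GBPs and IRGs to vacuoles, were tested as 13 genes. At 4 h LPS raised 2 of 13 against DMSO, where 7.7% of all genes were called higher, Trim21 (1.68 ± 0.19) and Sqstm1 (1.13 ± 0.06). DMF raised 3, where 4.55% of all genes were called higher, Sqstm1 (1.18 ± 0.09), Gabarapl1 (1.06 ± 0.09) and Map1lc3b (0.50 ± 0.10), and lowered 1, Trim21 (-1.58), where 6.51% were called lower. At 24 h CBD raised 12 of 13 (median 0.47), where 23.9% of all genes were called higher, led by Sqstm1 (2.39 ± 0.12). DMF raised 4 of 13, where 11.9% were, with Sqstm1 at 1.15 ± 0.12. Across the 4 lists, limma called 0 of 52 genes with MMF at 4 h (6 with an unadjusted p under 0.05), 0 of 52 with CBD at 4 h (3) and 0 of 50 with MMF at 24 h (3), and edgeR called 0 in each.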

How the data were processed

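Per the labels and the study's methods, poly(A) RNA was sequenced as 150-base paired-end reads. The authors checked reads with FastQC 0.12.1, trimmed them with cutadapt 4.4 and Trimmomatic 0.39, aligned them to GRCm39 with HISAT2 2.2.1, counted them per Ensembl gene with HTSeq 2.0.3 and compared groups with DESeq2 1.40.2 in R 4.3.1. Whether counting used strand was not given in the sources used here. The deposited tables hold, for each pair of groups, 6 library columns of signal, each a read count over its DESeq2 size factor. They also hold the authors' log2 fold changes with standard errors, Wald statistics, p-values and adjusted p-values, which were not used. Of the tables, 26 were used and 4 were not, which compare CBD with DMF or MMF at unlike doses.

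In 136 of 156 library columns the values were whole reads times 1 step, where 100.0% of values lay within 0.01 of a whole read, and 0 of 1694717 values compared between tables differed. Depth was 14.1 M to 26.7 M reads per library.

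Samples were grouped by the labels. Each comparison used limma 3.58.1 (R 4.3.3) with a trend on log2(normalized count + 1) over its 6 libraries, for genes at 10 or more in at least 3 of them, with Benjamini-Hochberg adjustment over all genes tested. Interactions used recovered reads of 12 libraries under joint median-of-ratios scaling. Alternatives were a pseudocount of 5, no filter, edgeR 4.0.16, DESeq2 1.42.0, all 36 libraries in 1 fit, the replicate number as a block, and leaving out each library. The limma, edgeR and DESeq2 fits, the block and the interaction were tested on simulated counts with known changes; the fit over all 36 libraries was not.

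Replicate numbers come from the labels, which number LPS groups 1 to 3 and vehicles 4 to 6, so LPS and vehicles share none. Over genes with a mean of 50 or more, every pair of same-numbered libraries correlated above 0.1 in 10 of 16 comparisons (r from 0.126 to 0.746), which were read as paired, and not in the other 6. The reported calls used no block in any comparison, these 10 included, and the block was fitted only as an alternative.

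The 10 genes and the gene lists were chosen with earlier results of these data known. All 10 genes were named in the comparisons, with at most 3 genes called per list and direction by size, with Irf1 and Casp4, and with the 5 genes most alike in pattern. Another gene that this rule names is not reported here.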

Additional observations from a re-analysis of the deposited data

Results flagged for a closer look

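The effects below differed between 4 h and 24 h by the interaction test over 12 libraries (limma, adjusted over all genes). Values are the effect at 24 h minus that at 4 h, in log2 units. The LPS effect against DMSO differed by -1.34 for Irgm1 and -1.63 for Irgm2, and that against EtOH by -0.98 for Irgm1. The DMF effect differed for all 10 genes: by 2.71 for Gbp3, 2.75 for Gbp2, 2.81 for Gbp5, 2.39 for Gbp7 and 4.87 for Gbp8 among the GBPs, and by 2.46 for Irgm1, 2.39 for Irgm2, 2.53 for Igtp, 1.18 for Ifi47 and 4.25 for Gm5431. The CBD effect differed by 5.81 for Gbp8, 1.11 for Irgm1 and 1.21 for Irgm2.

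The differences of Gbp8 and Gm5431 include groups with 3 to 12 reads over 3 libraries. Gbp8 passed the filter of these tests only through the libraries with DMF or CBD at 24 h, where it is high. The second library was the highest of its group for 8 to 10 genes in every group at 4 h, for 6 to 10 in the LPS groups at 24 h and for 2 or 3 in the vehicles at 24 h, and its part in these differences was not tested.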

How the results depend on the processing

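None of the 3535 values of single genes under another setting turned its direction after being called. Of 972 called values, 890 kept their call when a library was left out, and of 788 under other settings 756 did. Counts of called genes under other settings stayed within 1.5 times the reported count in 149 of 169 cases. With all 36 libraries in 1 fit, the counts were 5 for LPS against DMSO at 24 h (9 reported), 2 for DMF against LPS at 24 h (4), 1 for DMF against MMF at 24 h (4), 3 for LPS with DMF against DMSO at 4 h (1), 3 for LPS with MMF against DMSO at 24 h (7), and, for 24 h against 4 h, 1 in DMSO (2), 3 with MMF (6) and 1 with CBD (3). Without the filter they were 2 for LPS with DMF against DMSO at 4 h, 1 for DMSO over time and 0 for the LPS interaction against EtOH (1). DESeq2 gave 2 for LPS with DMF against DMSO at 4 h and 1 for EtOH over time (3), and edgeR 0 for the LPS interaction against EtOH.

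With the replicate block the counts were 7 for DMF (4) and 8 for CBD (5) against LPS at 24 h, 6 for CBD over time (3), 2 for DMSO against EtOH at 4 h (0) and 7 for the CBD interaction (3). For CBD over time the block called 65.7% of all genes in either direction, and the comparison was not read as paired (lowest r 0.0345). MMF against LPS at 4 h was not read as paired either (lowest r 0.081). There the block gave 5 lower (0), where 1.57% of all genes were called in either direction. These were Irgm1 (adjusted p = 0.00503), Igtp (0.0153), Gbp3 (0.0216), Ifi47 (0.0289) and Gbp2 (0.0361). Other single calls it changed are given with the results, beside Gbp3 in EtOH over time (adjusted p = 0.013).

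Leaving out 1 library, the counts ranged from 3 to 8 for LPS against EtOH at 4 h (7), 2 to 6 for DMF against MMF at 24 h, 1 to 2 for LPS with DMF against DMSO at 4 h, 1 to 3 for DMSO over time, 0 to 4 for EtOH over time, 1 to 7 for CBD over time, 2 to 6 for the LPS interaction against DMSO (2) and 0 to 4 for that against EtOH. The causes were not tested. Depth limits Gbp8, which held 3 to 21 reads over 3 libraries in 10 of 12 groups.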
